A study of Mus musculus with 9 samples.

Results

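The comparison described here sets liver RNA from mice with Mttp deleted in the liver (MttpLKO) against liver RNA from mice with intact, loxP-flanked Mttp (control). Its members are the 6 libraries labelled with these genotypes, of 9 in the series, and the 13859 genes, of 41388 in each table, that reached 0.5 CPM (counts scaled to library size) in at least 3 of the 6. All mice were males described as C57BL/6J congenics, were given diethylnitrosamine, a DNA-alkylating liver carcinogen, intraperitoneally at 25 mg/kg when 14 days old, ate standard chow, and had their livers taken at 6 months. Controls carried the genotype Mttp f/f with no other change named, and the carcinogen was common to both groups, so no untreated liver stands beside them. Every library pools the RNA of 3 mice, with 3 pools for each genotype. P-values therefore measure the spread between pools, and the spread between single mice was not measured. The promoter that drives the liver deletion, and whether the pools held tumour or surrounding tissue, were stated in none of the sources used here. The 3 remaining libraries, which also lack the fatty acid-binding protein gene Fabp1, entered the fit to estimate the spread and entered no contrast.

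Mttp encodes the large subunit of the microsomal triglyceride transfer protein, which sits in the endoplasmic reticulum (ER) with protein disulfide isomerase (P4hb) and moves lipid onto nascent apolipoprotein B. Without that lipid, apolipoprotein B is degraded and very-low-density lipoprotein (VLDL) is not secreted, and livers lacking Mttp are known for stored triglyceride. The series title places the comparison in a question about tumour formation when VLDL secretion is impaired.

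The control pools held 24995426 to 27080442 counts each and the MttpLKO pools 26362408 to 27918197. Mitochondrial genes took 5.61% to 6.66% of counts in these 6 libraries. On the first principal component of the 500 most variable genes (48.5% of variance) all control pools lay below 0 and all MttpLKO pools above it. On the second component (28.4%) MttpLKO pool 3 and control pool 1 lay apart from the rest of their genotypes, at 18.8 and 10.9 against -17.3 and -11.0 for the other MttpLKO pools and 0.58 and -2.06 for the other controls. Several results that rest on either pool are also given without it. The hepatocyte markers summed to between 98961 and 118016 CPM in all 6 libraries. Of the pancreatic acinar markers 6, among them Prss1 and Cpa1, were at 0 in all 6 libraries. In whole tissue, fewer cells of a type and less RNA per cell cannot be told apart.

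The deletion was visible in every MttpLKO pool. Mttp (chromosome 3, 138089855 to 138143388) read 181, 79.6 and 69.1 CPM in control pools 1 to 3 and 9.70, 6.10 and 6.27 CPM in MttpLKO pools 1 to 3. The lowest control pool thus held more than any MttpLKO pool, and control pool 1 stood above the other controls. Mttp fell 14.9-fold, a log2 fold change of -3.90 ± 0.38 (SE; adjusted p = 0.0011 by edgeR's quasi-likelihood test with Benjamini-Hochberg adjustment, the test behind every adjusted p that follows). Per length, its mean level went from 24.9 to 1.65 RPKM (counts scaled to gene length and library size). Counts are per gene, and the exons from which the remaining reads came cannot be read from them. Where values are set against each other in what follows, the control pools come first and pools are in the order 1 to 3.

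Few other genes moved. At an adjusted p under 0.05, 48 genes were called (0.346% of those tested), 30 higher in MttpLKO (0.216%) and 18 lower (0.13%). Of these, 26 rose and 13 fell at least 2-fold. In all 48 the 3 pools of one genotype lay wholly to one side of the other, which was so for 14.4% of all tested genes. At an unadjusted p under 0.05, 552 genes were higher (3.98%) and 423 lower (3.05%), the background for the gene lists below. The median log2 fold change over all genes was 0.006, and 97.9% of genes lay within 1 log2 unit of no change. Of the called genes 9 had no control pool and 2 had no MttpLKO pool at 0.5 CPM, so they passed the filter only through the genotype in which they were high. The count was 22, 14 and 15 without control pools 1, 2 and 3, 18 without MttpLKO pool 2 and 31 without pool 2 of the third genotype. Without MttpLKO pool 3 it was 36, of which 29 were among the 48, and without control pool 1 and MttpLKO pool 3 together it was 27, of which 18 were. DESeq2, run as an alternative, called 164 of the 13859 tested genes, among them all 48.

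**Figure D1:**
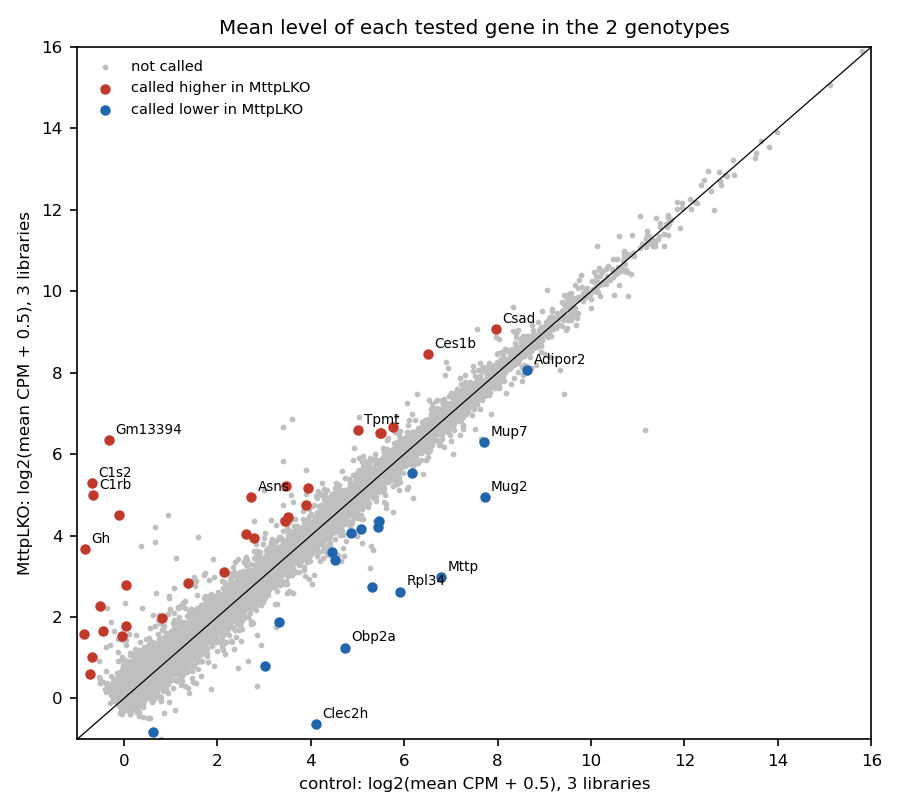
Mean level of each tested gene in control (horizontal axis) and MttpLKO (vertical axis), as log2(mean CPM + 0.5) over 3 libraries each, with the line of equal levels. Most genes follow the line, and the 48 called genes (30 red, higher in MttpLKO, and 18 blue, lower) include several that sit near the floor in control, such as C1s2, C1rb and Gm13394.

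A set of 13 genes kept the call when each of the 9 libraries was left out in turn: Gm13394, C1s2, C1rb, Rpl34, Tpmt, Crygn, Gh, Mug2, Slc16a5, Mttp, Ces1b, Pik3c2g and Gadd45gip1. The first 3 of these and Mug2 are near-identical to other genes over at least part of their sequence. A read from such a stretch can belong to any copy. Of the 48 called genes, 11 had another gene with at least 95% identity over at least 200 aligned bases, so their single-gene values are uncertain. The 3 with the smallest p were of this kind, and their differences from the copy are shown in windows of 61 bases (from GENCODE M21 transcripts, 5′ to 3′, numbered from the first base of the longest transcript), with capitals at each base that differs from the copy.
Gm13394 bases 316 to 376: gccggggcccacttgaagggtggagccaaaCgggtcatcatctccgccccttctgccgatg
Gapdh bases 408 to 468: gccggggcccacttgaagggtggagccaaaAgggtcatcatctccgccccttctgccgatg
C1rb bases 1957 to 2017: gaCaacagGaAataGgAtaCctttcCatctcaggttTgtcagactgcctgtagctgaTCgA
C1ra bases 2191 to 2251: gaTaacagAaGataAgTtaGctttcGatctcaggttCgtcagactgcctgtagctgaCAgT
C1s2 bases 1558 to 1618: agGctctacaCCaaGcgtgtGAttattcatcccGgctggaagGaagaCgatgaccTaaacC
C1s1 bases 1784 to 1844: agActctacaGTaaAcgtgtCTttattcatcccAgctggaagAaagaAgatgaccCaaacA

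Gm13394 (chromosome 2, 28933610 to 28934609) is annotated as a processed pseudogene. It read 0.28, 0.26 and 0.36 CPM in the control pools and 92.2, 69.2 and 80.1 in the MttpLKO pools (log2 fold change 8.03 ± 0.18, adjusted p = 3.17e-09). Its 1000 bases differ from the Gapdh transcript at 1 position, C346A, where the Gm13394 base comes first, the position counts from the first base of Gm13394, and the Gapdh base comes last. Gapdh itself, the glycolytic glyceraldehyde-3-phosphate dehydrogenase gene, named here as the copy, read 43.5, 46.8 and 34.2 CPM in control and 29.9, 30.7 and 51.5 in MttpLKO. Its groups overlapped (adjusted p = 0.969). A read from either gene that does not span that 1 base matches both. In all, 75 other genes, Gapdh among them, had at least 95% identity to Gm13394 over at least 200 aligned bases. The values of both genes are therefore uncertain, and the sources used here do not say how the authors' counting placed such reads.

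C1s2 and C1rb (chromosome 6, 124624625 to 124636085 and 124570294 to 124581171) are further copies of the C1s and C1r serine protease genes, which start the classical complement pathway. C1s2 was at 0.040, 0.23 and 0.11 CPM in control and 38.2, 39.9 and 37.7 in MttpLKO (adjusted p = 8.94e-08). C1rb was at 0.040, 0.15 and 0.22 CPM in control and 29.7, 33.0 and 31.3 in MttpLKO (adjusted p = 1.45e-06). The control values of both genes are a handful of reads per library, so no fold is given. The main hepatic copies were not called: C1s1 (96.0% identical to C1s2) read 250, 265 and 273 CPM against 237, 208 and 213 (adjusted p = 0.586), and C1ra (97.9% identical to C1rb) read 192, 147 and 150 against 164, 148 and 142 (adjusted p = 0.957). Mug2, a murinoglobulin gene for a broad plasma protease inhibitor, moved the other way. It read 191, 216 and 226 CPM in control and 43.9, 24.1 and 22.3 in MttpLKO, and fell 7.0-fold (log2 fold change -2.81 ± 0.25, adjusted p = 0.000465). Mug2 is 97.3% identical to Mug-ps1 over 1200 bases. The pseudogene Gm10319, also called lower, is 97.6% identical to Mug2 over 493 bases, so these values may share reads. Of 49 tested complement and coagulation genes C1s2, C1rb and Mug2 were the ones called, with a list median log2 fold change of 0.037.

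Tpmt, Ces1b and Slc16a5 rose at least 3-fold. Tpmt (chromosome 13, 47025170 to 47044737), which encodes thiopurine S-methyltransferase, read 31.7, 32.5 and 30.8 CPM in control and 107, 89.5 and 91.7 in MttpLKO. The pools of each genotype were close together, and Tpmt rose 3.03-fold (log2 fold change 1.60 ± 0.10, adjusted p = 3.15e-05). Ces1b, a carboxylesterase gene of a cluster whose enzymes cleave esters of drugs and lipids, read 92.2, 97.7 and 83.7 CPM in control and 338, 367 and 348 in MttpLKO (3.85-fold, adjusted p = 0.00451). It was the 1 called gene of the 13 tested carboxylesterases, whose median was -0.035. Ces1c, which encodes a secreted family member, was at 1491, 1554 and 1594 CPM in control and 1279, 1181 and 975 in MttpLKO (adjusted p = 0.343). Slc16a5, a monocarboxylate transporter family gene, read 8.52, 13.1 and 10.3 CPM in control and 33.5, 36.0 and 41.1 in MttpLKO (3.46-fold, adjusted p = 0.000747).

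Csad, which encodes the cysteine sulfinic acid decarboxylase of taurine synthesis, read 195, 261 and 296 CPM in control and 615, 569 and 429 in MttpLKO. Every MttpLKO pool was above every control, and Csad rose 2.15-fold (adjusted p = 0.0398). Nnt, the mitochondrial transhydrogenase gene that supplies NADPH and in which the C57BL/6J strain is known to carry a deletion, read 35.7, 42.9 and 54.6 CPM in control and 95.4, 90.3 and 87.7 in MttpLKO (2.05-fold, adjusted p = 0.0408). Which Nnt exons the reads covered cannot be read from gene counts. Enho, the gene for the secreted peptide adropin, read 12.1, 16.9 and 15.9 CPM in control and 42.6, 32.5 and 31.8 in MttpLKO (2.38-fold, adjusted p = 0.0148). Abcd2, a peroxisomal transporter gene for very long-chain acyl-CoA, read 3.23, 7.31 and 6.20 CPM in control and 16.3, 13.7 and 17.9 in MttpLKO (2.86-fold, adjusted p = 0.0398). Abhd2, a lipase family gene, rose 2.04-fold, from 45.6, 47.6 and 42.0 CPM to 88.2, 69.98 and 117 (adjusted p = 0.0429). Zap70, known as a T-cell kinase gene, read 13.6, 15.6 and 13.9 CPM in control and 26.6, 25.4 and 27.3 in MttpLKO (1.84-fold, adjusted p = 0.0408), while the 5 tested T and NK cell markers overlapped between genotypes, with none at an unadjusted p under 0.05 and none called by edgeR or DESeq2. These calls were less stable than the 13 named above: without single libraries the largest adjusted p was 0.164 for Csad, 0.22 for Nnt (both without control pool 2), 0.084 for Enho, 0.144 for Abcd2, 0.242 for Abhd2 and 0.201 for Zap70 (each without control pool 3).

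Among the genes that fell, Rpl34 had the smallest p. Rpl34 (chromosome 3, 130726831 to 130730398, the chromosome of Mttp) encodes a protein of the large ribosomal subunit. It read 55.8, 58.7 and 64.5 CPM in control and 4.40, 7.16 and 5.42 in MttpLKO, and fell 10.5-fold (adjusted p = 2.98e-06). It was the 1 called gene of 77 tested for cytosolic ribosomal proteins, whose median was 0.054. Crygn, a lens crystallin gene, fell 6.16-fold from 8.68, 6.04 and 8.03 CPM to 1.402, 1.02 and 1.26 (adjusted p = 0.000326). Gadd45gip1, which encodes a mitochondrial ribosome protein, read 40.1, 42.2 and 45.9 CPM in control and 17.4, 18.9 and 17.5 in MttpLKO (2.38-fold lower, adjusted p = 0.00568). Mri1, an enzyme gene of methionine salvage, read 39.0, 45.1 and 47.3 CPM in control and 22.4, 19.5 and 17.7 in MttpLKO (2.2-fold lower, adjusted p = 0.0398). Adipor2, a receptor gene for the fat-derived hormone adiponectin, was the most abundant of the called genes that fell, at 399, 379 and 414 CPM in control and 275, 257 and 272 in MttpLKO (log2 fold change -0.57 ± 0.10, adjusted p = 0.0429). Adipor2 and Mri1 lost the call in some fits without 1 library (largest adjusted p 0.262 and 0.166, both without control pool 3).

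The remaining called genes were smaller in level or change. Kcp, a secreted regulator of bone morphogenetic protein signalling, fell 1.75-fold from 28.6, 28.5 and 28.4 CPM to 15.8, 15.0 and 18 (adjusted p = 0.0148). Cyp2d40, a P450 gene, fell 1.56-fold from 68.4, 73.0 and 73.0 CPM to 46.6, 49.1 and 41.6 (adjusted p = 0.0297). Wdr83os, which encodes a subunit of an ER membrane chaperone, fell 1.85-fold from 22.2, 22.4 and 19.7 CPM to 11.9, 11.2 and 11.5 (adjusted p = 0.0121). In each the highest MttpLKO pool was below the lowest control. Usp38, a deubiquitinase gene, rose 1.98-fold from 11.3, 10.5 and 10.8 CPM to 22.8, 22.7 and 19 (adjusted p = 0.0398), and Cacna1a, a neuronal calcium channel gene, rose 3.17-fold from 1.98, 1.88 and 2.45 CPM to 4.85, 5.33 and 9.84 (adjusted p = 0.049). Bmyc, a Myc family gene, fell 2.98-fold from 5.90, 8.82 and 13.8 CPM to 2.99, 3.50 and 3.04 (adjusted p = 0.0408). The pseudogenes Rps4l and Gm10319 fell 1.9-fold and 2.24-fold, and the pseudogene Tdpx-ps1, 96.3% identical to the peroxiredoxin gene Prdx2, was at 0.040 to 0.29 CPM in control and 4.05 to 4.70 in MttpLKO. Gm5741, Igdcc4, Magohb and Erich4 rose and Asic3 fell, all at mean levels under 5 CPM in both genotypes. Every gene of this group lost the call without at least 1 library, the largest adjusted p running from 0.0864 for Wdr83os to 0.265 for Cacna1a, both without control pool 2.

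**Figure D2:**
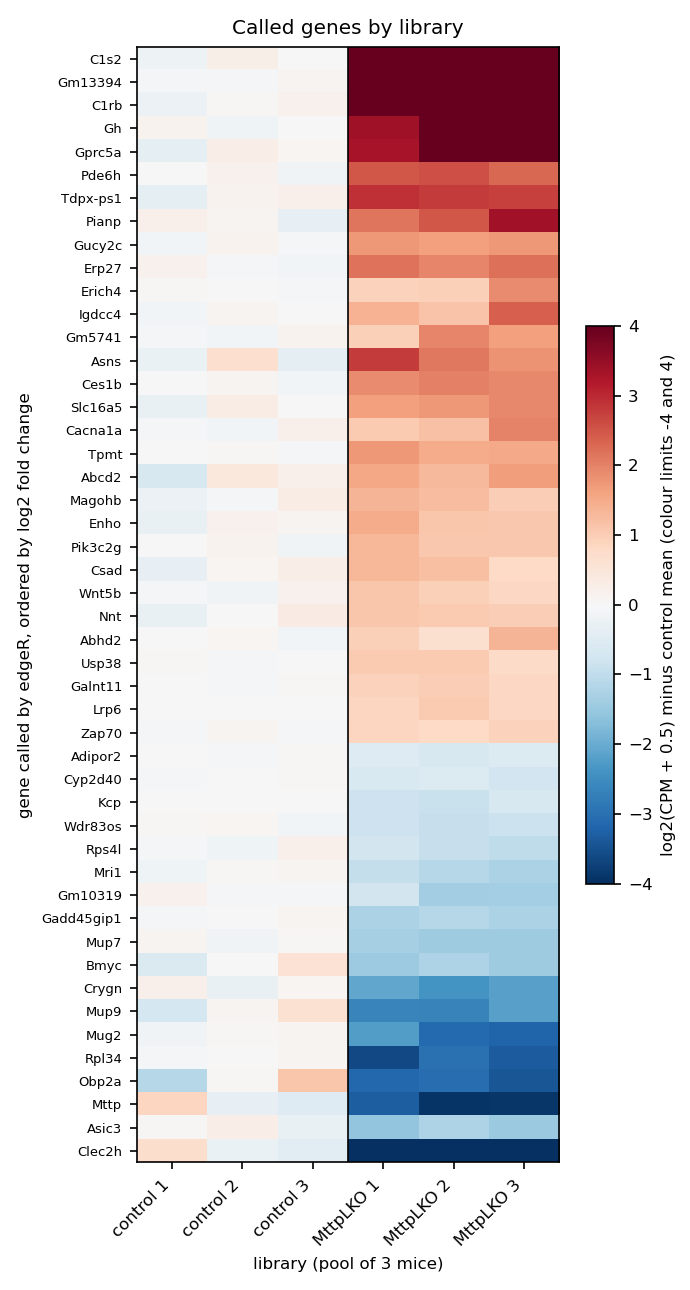
Level of each of the 48 called genes (rows, ordered by fold change) in each of the 6 libraries (columns), as log2(CPM + 0.5) minus the mean of the 3 control libraries; colours stop at -4 and 4. In every row the 3 MttpLKO pools lie on the same side of the 3 control pools, and Mttp, Obp2a and Clec2h also vary among the controls.

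The called genes were unevenly spread over the genome, with coordinates as the deposited tables give them. On chromosome 6, 18 of 690 tested genes were called (2.61%), against 0.346% over all genes, and on chromosome 8, 7 of 755 (0.927%). Joining called genes that lay within 5 Mb of each other gave 5 runs that held 29 of the 48. The longest run, chromosome 6 from 119353150 to 139969284, held 15 called genes among 148 tested (10.1%), 11 higher and 4 lower. A run on chromosome 8 from 80980734 to 85082339 held 6 of 60 (10.0%): Usp38, Mri1, Cacna1a, Gadd45gip1, Gm5741 and Wdr83os. The others held Asic3, Crygn and Galnt11 on chromosome 5 (3 of 19), Obp2a, Bmyc and Gm13394 on chromosome 2 (3 of 52), and Mup7 and Mup9 on chromosome 4 (2 of 4). Rpl34 and Mttp, though on the same chromosome, lie further apart than that and form no run. Rises and falls stood side by side in 4 of the 5 runs, and in the run on chromosome 4 both genes fell. Genes with near-identical copies, among them Gm13394, C1rb, C1s2, Mug2 and Gm10319, are placed where they are annotated. Their reads may come from a copy, so such calls may not be independent.

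Besides C1rb, C1s2, Mug2, Adipor2, Gm10319 and Magohb, all named above, the chromosome 6 run held the following genes. Gprc5a, a retinoic acid-inducible orphan receptor gene, read 0.20, 0.60 and 0.47 CPM in control and 8.45, 36.5 and 21.4 in MttpLKO (51.2-fold higher, adjusted p = 0.0302). Clec2h, a C-type lectin gene, read 26.0, 12.98 and 11.6 CPM in control and 0.15, 0.11 and 0.19 in MttpLKO, where 3 to 5 reads remained per library (adjusted p = 0.0408). Lrp6, the Wnt co-receptor gene, rose 1.9-fold from 53.6, 52.7 and 54.2 CPM to 98.5, 111 and 95.9 (adjusted p = 0.0302), and Wnt5b, a Wnt ligand gene, rose 2.07-fold from 3.76, 3.49 and 4.43 CPM to 8.90, 7.96 and 7.35 (adjusted p = 0.0493). Pianp, a single-pass membrane protein gene, rose 11.9-fold to 4.02, 5.26 and 9.91 CPM (adjusted p = 0.0095), and Pik3c2g, a class II phosphoinositide 3-kinase gene, rose 2.32-fold to 16.7, 14.0 and 14.0 CPM (adjusted p = 0.0052). Erp27, an ER protein gene, Gucy2c, the guanylin receptor gene, and Pde6h, a cone phosphodiesterase subunit gene, were each at 0.32 CPM or less in every control pool and between 1.46 and 2.82 CPM in every MttpLKO pool (adjusted p = 0.0101, 0.0114 and 0.0141). Except for Pik3c2g, these calls were lost without at least 1 library, with largest adjusted p of 0.148 for Gprc5a and 0.0762 for Pianp without control pool 3, 0.0863 for Gucy2c and 0.084 for Pde6h likewise, 0.177 for Clec2h without MttpLKO pool 2, and 0.0861 for Erp27, 0.151 for Lrp6 and 0.281 for Wnt5b without control pool 2.

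**Figure D3:**
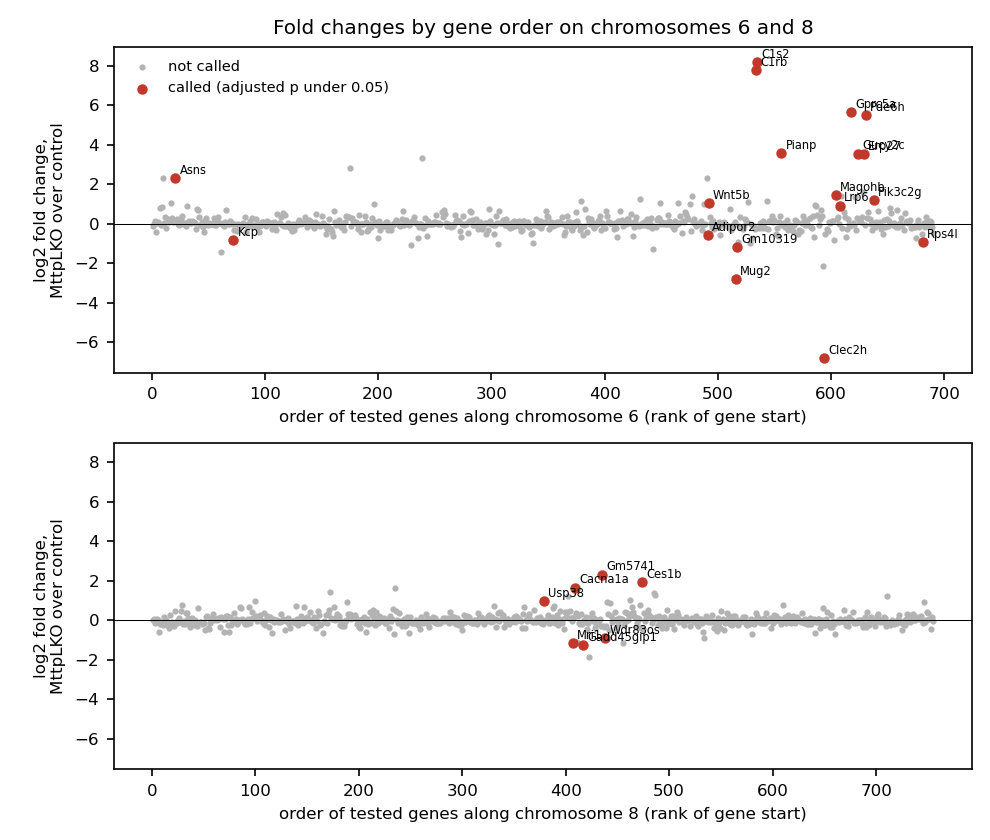
Log2 fold change of each tested gene, MttpLKO over control, in the order of gene starts along chromosomes 6 (690 genes) and 8 (755 genes); red points are the called genes. On chromosome 6, 15 of the 18 called genes lie in the run of 148 genes toward the right end, and on chromosome 8, 6 of the 7 lie in a run of 60.

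Genes that act on VLDL beside Mttp stayed close to their control levels. All 36 genes of the VLDL assembly and lipoprotein list passed the filter, 19 were above 0, Mttp was the 1 called, and the median log2 fold change was 0.013. Apoe, the most abundant, was at 35570, 34920 and 35380 CPM in control and 33740, 37920 and 31600 in MttpLKO, with overlapping groups. Apob, whose protein Mttp lipidates, was at 136 RPKM in control and 135 in MttpLKO (chosen after its values were seen), and P4hb, the other subunit of the transfer protein, had a log2 fold change of -0.027 ± 0.11. Apoa4, a component of triglyceride-rich particles, read 81.1, 86.9 and 94.1 CPM in control and 52.0, 56.0 and 64.8 in MttpLKO without passing the test (log2 fold change -0.60 ± 0.17, adjusted p = 0.304). Apom, a carrier of sphingosine-1-phosphate on lipoproteins, read 123, 98.7 and 84.7 CPM against 182, 150 and 141 (log2 fold change 0.63 ± 0.20, adjusted p = 0.407).

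Storage and synthesis of lipid showed no gene called by edgeR in the fit of all libraries. Of 24 tested lipid droplet and lipase genes 9 were above 0, with a median of -0.057, 4 were lower without overlap (7.26% of all genes) and none higher, 1 was called lower by DESeq2, and 3 were lower (3.05% of all genes) and none higher at an unadjusted p under 0.05. Cidec, which enlarges droplets by fusing them, read 8.68, 19.5 and 18.99 CPM in control and 5.34, 7.85 and 6.27 in MttpLKO (log2 fold change -1.28 ± 0.27, adjusted p = 0.119), and the related Cidea read 1.45, 4.50 and 3.49 against 1.02, 0.44 and 0.56 (adjusted p = 0.411). Control pool 1 was the control nearest to the MttpLKO pools for both genes. Without that pool edgeR called Cidec lower (log2 fold change -1.58, adjusted p = 0.00331). The 5 tested adipocyte markers, which include both, had a median of -1.28 and summed levels of 30.9 to 50.5 CPM in control and 26.2 to 35.8 in MttpLKO, with Lep at 0 in all 6 libraries; their part in these values was not tested. Plin2, the main droplet coat protein gene of hepatocytes, overlapped between genotypes at 286, 450 and 422 CPM against 347, 382 and 304. The 29 fatty acid and triglyceride synthesis genes had a median of 0.017, with 3 higher and 3 lower at an unadjusted p under 0.05 and none called by edgeR or DESeq2. Without overlap 4 were higher (Me1, Gpat3, Gpat4 and Acsl1) and 3 lower (Srebf1, Fasn and Thrsp), named after their values were seen. The shares over all genes were 7.12% and 7.26%. Scd1, the stearoyl-CoA desaturase gene, was at 2122, 1824 and 1358 CPM in control against 854, 513 and 1446 in MttpLKO (adjusted p = 0.547), MttpLKO pool 3 reaching the control range.

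Fabp1, the abundant cytosolic fatty acid-binding protein of hepatocytes, read 6839, 6042 and 6213 CPM in control and 3351, 3969 and 4990 in MttpLKO. The groups did not overlap, yet the test did not call the difference (log2 fold change -0.63 ± 0.18, adjusted p = 0.34). Fabp2, the intestinal-type binding protein gene, was at 42.0, 46.0 and 56.1 CPM against 27.1, 25.8 and 27.1 (log2 fold change -0.85 ± 0.25, adjusted p = 0.352). Of 22 tested uptake and binding genes 14 were above 0 (median 0.038), and Abcd2 was the 1 called. The 41 tested oxidation and PPARalpha target genes had a median of 0.095, with 2 higher and 2 lower at an unadjusted p under 0.05, none called by edgeR and 2 called higher by DESeq2. Within that list the acyl-CoA thioesterase genes Acot3 and Acot4 were higher in every MttpLKO pool. Acot3 read 9.49, 11.4 and 13.4 CPM against 29.9, 32.1 and 32.4, and Acot4 read 13.2, 14.9 and 15.5 against 27.6, 25.9 and 22.04 (adjusted p = 0.136 for each). Fgf21, a fasting hormone gene and PPARalpha target, was at 1.21, 2.78 and 2.23 CPM against 0.57, 0.95 and 0.56 (adjusted p = 0.419).

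Cholesterol synthesis genes split by pool. Of 26 SREBP2 targets 20 were above 0 with a median of 0.17, and 2 were higher at an unadjusted p under 0.05 with none called by edgeR or DESeq2, but the medians against the control mean were 0.66 in MttpLKO pool 1 and -0.11 and -0.18 in pools 2 and 3. Without pool 1 the list median was -0.15. Bile acid synthesis and FXR control genes (28 tested, median 0.044) held 2 higher and 2 lower at an unadjusted p under 0.05 and none called by edgeR or DESeq2. Nr0b2, the bile acid-induced repressor SHP, was at 77.1, 88.6 and 86.3 CPM against 54.7, 56.4 and 24.6 (log2 fold change -0.89 ± 0.25, adjusted p = 0.338), and Abcb11, the bile salt export pump gene, was at 329, 345 and 363 CPM against 284, 229 and 266 (adjusted p = 0.40).

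Stress pathways of the ER and of amino acid supply were examined next. Of 30 ER chaperone and unfolded protein response genes 24 were above 0 (51.4% over all genes) and the median was 0.25. Without overlap 12 of the 30 were higher, against 7.12% of all genes, and none lower, and 7 were higher at an unadjusted p under 0.05 (3.98% of all genes), yet edgeR and DESeq2 called none. Hspa5, the chaperone BiP, read 417, 307 and 303 CPM in control and 463, 482 and 616 in MttpLKO (log2 fold change 0.60 ± 0.19, adjusted p = 0.424). Edem1, which acts in ER-associated degradation, read 117, 104 and 95.3 CPM against 125, 135 and 150 (adjusted p = 0.494). The list median per pool was 0.16, 0.13 and 0.30 in MttpLKO pools 1 to 3, but also 0.15 in control pool 1, and leaving out each library gave medians of 0.18 to 0.29.

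Asns, the asparagine synthetase gene and a classical target of the transcription factor ATF4, was the 1 called gene of 35 tested in the ATF4 and amino acid synthesis list. It read 4.73, 9.38 and 4.25 CPM in control and 43.2, 26.4 and 21.4 in MttpLKO, with no overlap, and rose 4.96-fold (log2 fold change 2.31 ± 0.39, adjusted p = 0.0408, and 0.189 without control pool 3). The list median was 0.18 with 24 above 0. ATF4 binds amino acid response elements, and the letters TGATGNAAN, searched on both strands of 300-base promoters (RefSeq, GRCm38.p6), stand in the Asns promoter 23 bases before the start site. The 250 bases before that start are shown for this reason, with the match in capitals, followed by the matching windows of the other called genes that hold one (Pik3c2g with the match on the opposite strand).
Asns chr6:7693210-7693459, minus strand: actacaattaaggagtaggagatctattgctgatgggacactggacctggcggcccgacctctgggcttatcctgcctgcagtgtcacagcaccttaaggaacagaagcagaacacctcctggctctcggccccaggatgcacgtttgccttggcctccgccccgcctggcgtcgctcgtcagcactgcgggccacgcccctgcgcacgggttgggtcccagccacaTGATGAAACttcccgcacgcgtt
Galnt11 chr5:25246327-25246355, plus strand: tgctttcccaTGATGCAAAtctgtgactt
Pik3c2g chr6:139613988-139614016, plus strand: atgaatctcaGTTGCATCAacagtgtcag

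The letters occurred in 1299 of 32851 promoters (3.95%), in 10 of 29 tested list members with a promoter (34.5%) and in 3 of 32 called genes with one (9.38%). The first share counts promoters, whereas the others count genes with a match in any of their promoters, so they are not on one scale. The list was chosen for ATF4, so its share is not independent evidence. Galnt11, a gene for an enzyme of mucin-type O-glycosylation, read 10.6, 9.87 and 10.7 CPM in control and 19.9, 21.2 and 18.9 in MttpLKO (1.93-fold, adjusted p = 0.0114, and 0.0871 without control pool 2). Holders of the motif did not move one way: Fgf21, whose promoter matches at 140 bases before the start, had a log2 fold change of -1.58 ± 0.50. A match is a description of letters and no measurement of binding. The 38 tested NRF2, glutathione and antioxidant genes had 29 above 0 and a median of 0.11. At an unadjusted p under 0.05, 5 of them were higher (3.98% of all genes), and none was called by edgeR or DESeq2. Abcc4, an efflux transporter gene, was at 3.35, 7.28 and 4.18 CPM against 14.8, 8.21 and 7.91 (adjusted p = 0.37). Of 28 p53 and DNA damage genes (median 0.13) none was called by edgeR or DESeq2 or had an unadjusted p under 0.05, and Gadd45g ranged from 52.1 to 123 CPM in control and from 56.0 to 307 in MttpLKO.

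Genes whose liver level differs between males and females had fold changes of opposite sign by class in these males. The pattern of such genes is set by the pulses of growth hormone, which reach hepatocytes through its receptor and STAT5. Of 33 tested male-biased genes 27 were at or below 0, the median was -0.57, 16 were lower without overlap (7.26% of all genes were) and none higher, and 2 were called lower. Of 34 tested female-biased genes 32 were above 0, the median was 0.66, 12 were higher without overlap (7.12% of all genes) and none lower, and 2, Enho and Abcd2, were called higher. The male-biased medians were -0.46, -0.71 and -0.54 in MttpLKO pools 1 to 3 and the female-biased medians 0.64, 0.79 and 0.57, so by median all 3 pools took part. Summed levels overlapped on both lists. They were 22129 to 26891 CPM against 21352 to 23276 for the male-biased list and 605 to 1855 against 1786 to 2766 for the female-biased. Cyp4a14, the most abundant female-biased gene, also overlapped, at 170, 486 and 945 CPM against 912, 1453 and 787 (adjusted p = 0.799). Control pool 1 stood apart from the other controls, at 0.18 and -0.31 on the 2 lists, and leaving out each library gave medians of -0.59 to -0.39 and of 0.44 to 0.88. The number called changed more than the medians, from 0 to 9 male-biased and 0 to 5 female-biased genes over the alternatives.

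The male-biased genes called were a major urinary protein and a lipocalin. Mup7 carries pheromones in male urine. It read 226, 187 and 213 CPM in control and 81.6, 76.7 and 76.7 in MttpLKO (2.66-fold lower, adjusted p = 0.0428, and 0.174 without MttpLKO pool 2). Mup9, a relative outside the list, fell 6.34-fold from 22.1, 38.9 and 55.7 CPM to 5.42, 5.26 and 7.72 (adjusted p = 0.0431, and 0.205 without MttpLKO pool 2). Both have near-identical relatives (98.8% for Mup7 and Mup13, 99.1% for Mup9 and Mup8), so reads may be split among them. Obp2a, an odorant-binding lipocalin gene, read 9.29, 22.2 and 46.1 CPM in control and 1.97, 2.12 and 1.52 in MttpLKO (13.8-fold lower, adjusted p = 0.0408, and 0.16 without MttpLKO pool 2), and its controls were spread widely. Mup3 and Mup20, far more abundant, were at 8185 to 8782 CPM against 7115 to 7725 and at 1653 to 2091 against 1318 to 1416 (adjusted p = 0.91 and 0.333). Among female-biased genes Cyp2a4, a testosterone hydroxylase gene, was at 13.5, 48.8 and 33.9 CPM in control and 82.8, 70.7 and 209 in MttpLKO (adjusted p = 0.229), control pool 1 being the lowest.

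Reads assigned to the growth hormone gene itself were counted in the MttpLKO pools. Gene counts do not show which part of the gene these reads covered, and the transcript they came from was not tested. Gh (chromosome 11, 106300271 to 106301865) had 3, 0 and 2 reads in the control pools and 143, 464 and 381 in the MttpLKO pools, or 0.12, 0 and 0.072 CPM against 5.42, 16.9 and 14.1 (adjusted p = 0.00041, and 0.00518 at most without 1 library). Of the pituitary markers fixed for comparison, Prl, Lhb and Fshb were at 0 in all 6 libraries. Of the 18 tested genes of growth hormone signalling Gh was the 1 called, and the median was -0.007. Prlr, the prolactin receptor gene, was at 51.2, 71.3 and 92.2 CPM against 132, 118 and 126 (log2 fold change 0.81 ± 0.21, adjusted p = 0.259). Esr1, the estrogen receptor gene, was at 9.09, 7.05 and 6.45 CPM against 16.1, 11.4 and 16.7 (log2 fold change 0.97 ± 0.20, adjusted p = 0.101). EdgeR called none of the 46 tested nuclear receptor and hepatocyte transcription factor genes (median -0.018; 1 higher and 3 lower at an unadjusted p under 0.05; 1 called higher by DESeq2). Hnf4a, a master regulator of hepatocyte identity, was at 714, 643 and 678 CPM against 603, 737 and 707.

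Markers of liver tumours and of fetal liver had mostly positive fold changes, none past edgeR's threshold in the fit of all libraries. Of 45 tested 36 were above 0 and the median was 0.36; 14 were higher and 2 lower without overlap (7.12% and 7.26% of all genes), and at an unadjusted p under 0.05, 15 were higher and 3 lower (3.98% and 3.05% of all genes). EdgeR called none and DESeq2 called 9 higher and 1 lower, of the 164 it called over all genes. The per-pool medians were 0.23, 0.23 and 0.69, highest in MttpLKO pool 3, and the list median ran from 0.28 to 0.48 when libraries were left out. Akr1c18, a hydroxysteroid dehydrogenase gene just outside the threshold, read 0.77, 0.94 and 1.55 CPM in control and 4.21, 7.67 and 29.4 in MttpLKO (log2 fold change 3.65 ± 0.66, adjusted p = 0.0556, and 2.43 with adjusted p = 0.0116 without MttpLKO pool 3). Gpc3, the oncofetal glypican, read 2.18, 3.30 and 2.95 CPM against 4.43, 6.83 and 12.5 (adjusted p = 0.137). Myc, the growth-promoting transcription factor gene, read 15.8, 9.83 and 9.62 CPM against 25.7, 24.2 and 33.5 (log2 fold change 1.24 ± 0.31, adjusted p = 0.226). In each of these the lowest MttpLKO pool was above the highest control. Meg3, an imprinted noncoding RNA gene, read 5.49, 7.73 and 6.41 CPM against 16.7, 13.1 and 10.3 (adjusted p = 0.0951, and 0.0477 without MttpLKO pool 3).

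Cell cycle and matrix genes were highest in MttpLKO pool 3. The 35 tested cell cycle genes had a median of 0.42, but pool medians of 0.058, -0.003 and 0.68, and 0.004 without pool 3. The 48 tested matrix and stellate genes had 43 above 0 and a median of 0.40, with pool medians of 0.023, 0.13 and 0.77, and 0.089 without pool 3. Of the matrix genes 11 were higher without overlap (7.12% of all genes) and none lower, and 14 were higher at an unadjusted p under 0.05 (3.98%). Of the cell cycle genes 2 were higher and 1 lower without overlap, and 1 was higher and 1 lower at an unadjusted p under 0.05. EdgeR called none of either list, and DESeq2 called 0 cell cycle genes and 2 matrix genes higher. Reln, a stellate cell gene, read 32.6, 33.8 and 36.5 CPM in control and 44.3, 59.1 and 80.5 in MttpLKO (adjusted p = 0.126). Mgp, a matrix calcification inhibitor, read 2.87, 2.21 and 1.73 against 3.83, 7.26 and 9.95 (adjusted p = 0.157). Mgp (chromosome 6, 136872436 to 136875805) lies within the span of the chromosome 6 run. Stellate cell markers summed to 407 to 429 CPM in control and to 351, 486 and 700 in MttpLKO. Of 10 tested (median 0.27), 1 was higher at an unadjusted p under 0.05 (3.98% of all genes), none was called by edgeR and 1 by DESeq2. Bile duct markers summed to 142 to 152 CPM against 167, 167 and 229. Of 9 tested (median 0.26), 2 were higher at an unadjusted p under 0.05, with none called by edgeR or DESeq2. Spp1, the most abundant bile duct marker, is also on the recruited macrophage list. Without MttpLKO pool 3 the stellate median was 0.003 and the bile duct median 0.187. The part of these cells in the matrix values was not tested.

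**Figure D4:**
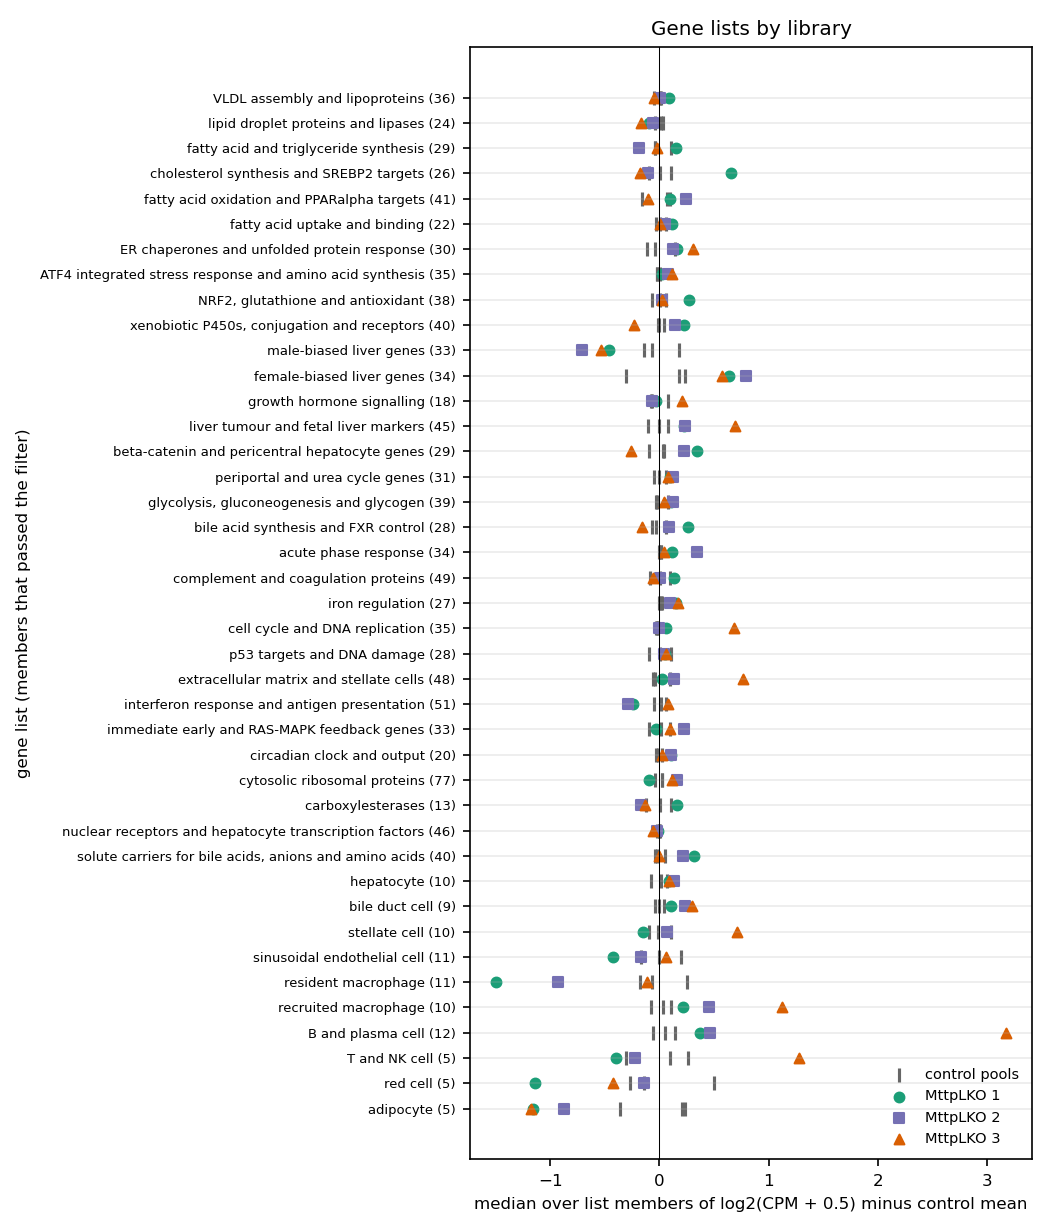
Median, over the tested members of each gene list with at least 5 (number in parentheses), of log2(CPM + 0.5) minus the mean of the 3 control libraries, for each control pool (grey bars) and MttpLKO pools 1 to 3 (circle, square, triangle). The male-biased and female-biased lists lie apart from control in all 3 MttpLKO pools, whereas cell cycle, matrix and B and plasma cell lists are highest in pool 3 and cholesterol synthesis in pool 1.

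Immune cell markers also varied by pool. Of 11 resident macrophage (Kupffer cell) markers 10 were below 0, with a median of -0.83, 5 lower at an unadjusted p under 0.05 (3.05% of all genes) and none called by edgeR or DESeq2. Their summed level was 142 to 194 CPM in control and 52.5, 67.1 and 184 in MttpLKO, so pools 1 and 2 were low and pool 3 lay in the control range. Clec4f, a lectin specific to Kupffer cells, read 48.5, 36.9 and 37.4 CPM in control and 11.8, 12.96 and 35.3 in MttpLKO (adjusted p = 0.617). Folr2 read 5.53, 4.01 and 4.36 CPM against 1.21, 1.28 and 2.93 (adjusted p = 0.407), and the scavenger receptor gene Marco 3.51, 5.401 and 4.43 against 1.14, 2.12 and 3.12 (adjusted p = 0.455). Without MttpLKO pool 3 the list median was -1.34, still with none called. All 10 tested markers of recruited macrophages were above 0 (median 0.75). At an unadjusted p under 0.05, 4 were higher (3.98% of all genes), none was called by edgeR and 1 by DESeq2. The markers of this list summed to 79.0 to 90.9 CPM in control and 95.7, 110 and 190 in MttpLKO. Their median was 0.361 without MttpLKO pool 3. Much of that sum was Spp1, the most abundant member of this list and of the bile duct list. Spp1 read 51.8, 42.3 and 52.1 CPM against 61.8, 71.55 and 109 (adjusted p = 0.34), so the 2 sums are not independent. Gpnmb, a gene of lipid-laden macrophages, read 0.12, 0.26 and 0.40 CPM against 1.18, 2.08 and 2.45 (log2 fold change 2.83 ± 0.73, adjusted p = 0.244).

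B and plasma cell markers were highest in MttpLKO pool 3. All 12 tested were above 0 with a median of 2.54 (0.62 without that pool), 6 were higher without overlap (7.12% of all genes), 8 were higher at an unadjusted p under 0.05 (3.98%), none was called by edgeR and 3 were by DESeq2. The pool medians were 0.38, 0.46 and 3.18 in MttpLKO and at most 0.14 in control, so pools 1 and 2 were also above control, by less. They summed to 38.5 to 55.2 CPM in control and to 53.7, 89.1 and 857 in MttpLKO. Igkc, the kappa light chain constant gene, read 7.79, 14.9 and 12.1 CPM in control and 16.5, 29.6 and 300 in MttpLKO (adjusted p = 0.311). T and NK cell markers summed to 8.42 to 15.4 CPM in control and 7.87, 8.46 and 37.7 in MttpLKO, again high in pool 3, and their median of 0.59 turned to -0.50 without it. Of 11 sinusoidal endothelial markers (median -0.12) edgeR called none and DESeq2 called 1 lower, the 1 with an unadjusted p under 0.05. Stab2, a hyaluronan scavenger receptor gene, read 62.9, 61.1 and 55.1 CPM against 39.0, 40.8 and 38.1 (log2 fold change -0.60 ± 0.14, adjusted p = 0.162). The 2 tested neutrophil markers (Mpo at 0 in all 6 libraries) summed with the rest of their list to 3.17 to 14.4 CPM against 2.12 to 5.15, the 5 tested red cell markers had a median of -0.56 with overlapping groups, and the 1 tested skeletal muscle and 1 tested pancreatic marker were not called. Of 51 interferon and antigen presentation genes 39 were at or below 0 (median -0.15), 12 were lower without overlap (7.26% of all genes) and none higher, and 1 was higher and 6 lower at an unadjusted p under 0.05 (3.98% and 3.05% of all genes) with none called by edgeR or DESeq2. Their pool medians were -0.25, -0.29 and 0.081, and Irf7, a master regulator of interferon genes, read 66.3, 55.0 and 65.5 CPM against 53.2, 49.2 and 35.9 (adjusted p = 0.541).

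**Figure D5:**
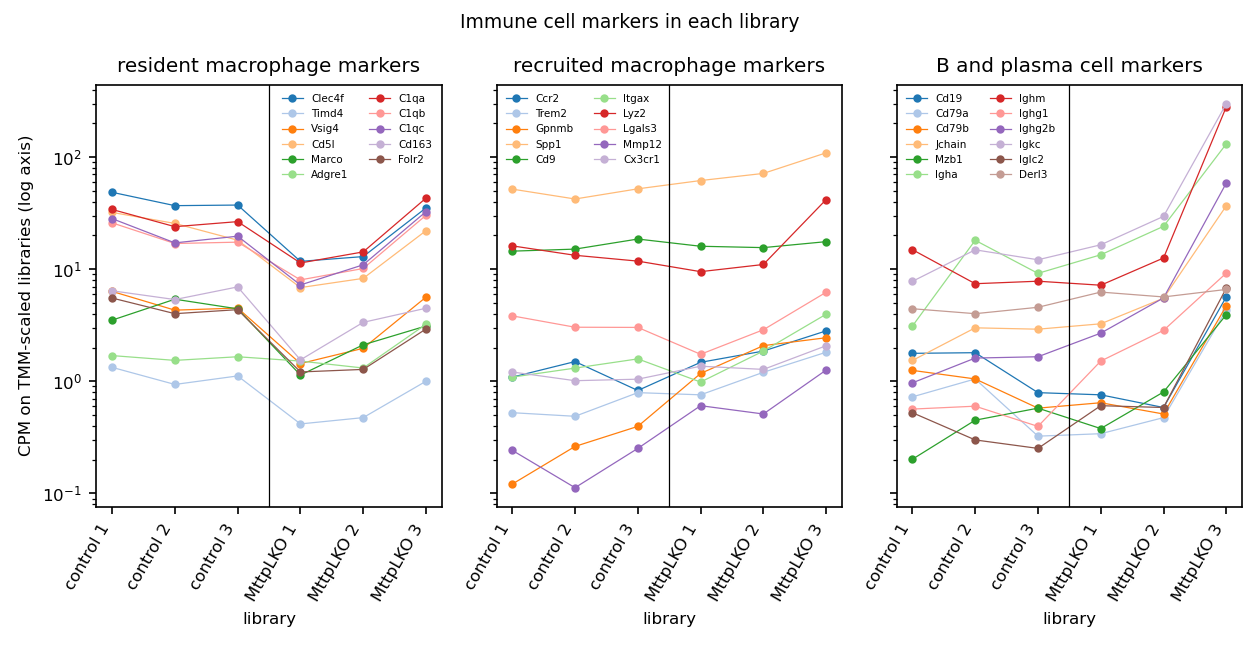
Level (CPM, log axis) of each tested marker of resident macrophages, recruited macrophages and B and plasma cells in the 6 libraries; lines join the values of 1 gene and the vertical line divides the genotypes. Resident macrophage markers are low in MttpLKO pools 1 and 2, and immunoglobulin genes are high in MttpLKO pool 3, at 300 CPM for Igkc.

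Most other liver functions held few or no called genes. EdgeR called none in the lists of acute phase (34 tested, median 0.14), iron regulation (27, median 0.13), periportal and urea cycle (31, median 0.17), beta-catenin and pericentral (29, median 0.14), glycolysis, gluconeogenesis and glycogen (39, median 0.13), immediate early and RAS-MAPK feedback (33, median 0.15), circadian clock (20, median 0.15) and hepatocyte markers (10, median 0.15). At an unadjusted p under 0.05 these held 6, 3, 6, 2, 2, 3, 1 and 0 genes in that order (7.04% of all genes), and DESeq2 called 2, 1, 1, 0, 0, 1, 0 and 0. Without overlap 9, 2, 6, 1, 3, 4, 3 and 0 were higher (7.12% of all genes) and 2, 0, 3, 0, 1, 1, 0 and 1 lower (7.26%). Hamp, the gene of the iron hormone hepcidin, read 1010, 1136 and 1213 CPM in control and 1447, 2502 and 2670 in MttpLKO (log2 fold change 0.98 ± 0.20, adjusted p = 0.115). Lcn2, an acute phase siderophore-binding protein gene, read 8.12, 16.2 and 18.6 CPM against 22.9, 56.4 and 64.6 (adjusted p = 0.152). In both genes MttpLKO pool 1 was the lowest of its genotype. Pericentral genes had pool medians of 0.34, 0.23 and -0.26, with Cyp2e1, a P450 that activates nitrosamines, at 8709 and 9472 CPM in MttpLKO pools 1 and 2, 5229 in pool 3 and 6630 to 6955 in control. Slc25a15, the mitochondrial ornithine carrier gene of the urea cycle, read 184, 196 and 208 CPM against 266, 362 and 278 (adjusted p = 0.237). Of the 40 xenobiotic genes Tpmt was the 1 called (median 0.033), and of the 40 solute carriers Slc16a5 was (median 0.15). Of the solute carriers 10 were higher and 3 lower without overlap (7.12% and 7.26% of all genes), 8 were higher and 2 lower at an unadjusted p under 0.05 (3.98% and 3.05%), and DESeq2 called 3 higher and 2 lower. Their pool medians were 0.31, 0.22 and -0.008 in MttpLKO.

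By amount of RNA, none of the 10 largest rises and 10 largest falls in mean CPM was called. The rises were led by Alb, at 59450, 60840 and 50460 CPM in control and 57320, 57470 and 69340 in MttpLKO, where the groups overlapped. Mat1a, the liver S-adenosylmethionine synthetase gene, did not overlap, at 1778, 2208 and 2328 CPM against 3880, 4501 and 2636 (log2 fold change 0.80 ± 0.22, adjusted p = 0.299). The falls were led by Apoa1 and Fabp1, Apoa1 overlapping at 15780, 14530 and 12680 CPM against 11150, 11440 and 13060. At the threshold itself, the 5 genes just inside were Abhd2, Adipor2, Mup9, Cacna1a and Wnt5b, with adjusted p from 0.0429 to 0.0493. The 5 just outside were Akr1c18, Mup14, Tcf24, Nipal1 and Cacna1b, from 0.0556 to 0.0645. Nipal1, a magnesium transporter family gene, was at 1.70, 2.59 and 0.72 CPM against 7.01, 7.30 and 16.8, and Cacna1b, a calcium channel gene related to Cacna1a, at 0.081, 0.15 and 0.61 against 1.36, 3.21 and 7.87.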

How the data were processed

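Polyadenylated liver RNA was sequenced from 9 libraries, each a pool of 3 mice, 3 per genotype. Counts of reads per gene were deposited by the authors as whole numbers, not normalized, per the file headers. CPM and RPKM values stand beside them in the deposited tables and were recomputed from counts and gene lengths to within 5.1e-11; the deposited columns entered no test. The submitters' processing notes list STAR 2.0.4b, Subread and featureCounts 1.4.5 without their roles. Genome build, annotation, strand setting and treatment of multiply matching reads were not given in the sources used here. Among gene identifiers, 97.47% matched GENCODE M21, 97.26% had a symbol, and overlapping and antisense genes are uncertain.

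Genes with CPM of at least 0.5 in at least 3 of the 6 compared libraries were kept; they held 99.896% of counts. CPM values printed here are on TMM-scaled library sizes. Differences were tested by edgeR 4.0.16 (R 4.3.3, glmQLFit and glmQLFTest) in 1 fit of 3 genotype means over 9 libraries with 6 residual degrees of freedom (biological coefficient of variation 18%), with Benjamini-Hochberg adjustment over all 13859 genes. The tests were first tested on simulated data with 200 changed genes. There edgeR made 173 calls, 14 of them false, and recovered 67% of 2-fold and 92% of 4-fold changes. DESeq2 made 197 calls, 26 of them false, and recovered 76% and 95%. Replicates of a genotype differed by more than counting error (chi-square over degrees of freedom 22 to 56.7). Alternatives were other scalings and filters, DESeq2 1.42.0, limma-voom 3.58.1, the 6 libraries alone, a replicate block, the fit less the 20 most abundant genes, a minimum log2 fold change of 1, and leaving out each library. Another 2 alternatives were added after seeing the data.

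The members, the 45 gene lists and the rule for named genes were chosen with earlier results of these data known, so a list's direction is not independent evidence. The rule took Mttp; called genes with a mean CPM of at least 1; the 10 largest rises and falls in mean CPM; the 3 smallest p and the most abundant member of each list; and the 5 genes on each side of the threshold. Gapdh, C1ra and C1s1, named as copies, were taken from the sequence match.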

Additional observations from a re-analysis of the deposited data

How the results depend on the processing

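Mttp kept its call under all 21 alternatives listed for it and 2 added after seeing the data, with log2 fold changes from -4.15 to -3.24. The count of 48 called genes (30 higher, 18 lower) was 171 (112 and 59) with no filter on low counts and 164 (105 and 59) with DESeq2, and all 48 were among the calls of each. It was 15 (7 and 8) when genes had to reach the CPM minimum in all 6 libraries (of the 33 lost, 15 were left out of that test and 18 were tested and not called), and 12 (8 and 4) when a change beyond 1 log2 unit was tested. Leaving out 1 library gave 14 to 46 calls, 9 to 32 higher and 5 to 22 lower. Without control replicate 1 and MttpLKO replicate 3 together there were 27 (14 and 13). With the 6 compared libraries alone there were 49, of which 24 were higher and 25 lower, and without MttpLKO replicate 3 as well 66, with 28 lower; the cause was not tested. Of the 48, 9 genes were called under each of the 21 that tested them.

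The labels number the pools 1 to 3 in each genotype. Deviations from the genotype mean correlated at r = -0.14, -0.061 and -0.136 between same-numbered control and MttpLKO pools. Between differently numbered pools r ran from -0.144 to 0.224. With 3 pools per genotype these values cannot show whether the numbers mark a pairing. With a replicate block 33 genes were called (20 higher, 13 lower), 27 of them among the 48.

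Scaling by RLE or upper quartile gave a median log2 fold change of 0.009 over all genes, against 0.006, and no called gene changed direction. Of the 189 named genes, 14 uncalled ones changed sign under some alternative. Other uncalled genes gained the call under some, Akr1c18 under 6 and Mup14 under 5. Genes at a few reads per library, such as Gh and Pde6h in control, are limited by depth.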

Other observations

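Plekhh2, among the 10 largest falls in mean CPM, rested on 1 library: it read 4.40, 26.9 and 6764 CPM in control pools 1 to 3 and 211, 51.5 and 23.8 in MttpLKO pools 1 to 3 (edgeR adjusted p = 0.756), and its log2 fold change of -4.57 became 2.60 without control replicate 3. Cyp2b9, a female-biased P450 gene chosen after its values were seen, read 5.57 CPM in control pool 1 and 45.9 and 45.6 in the other controls, against 70.7, 54.0 and 53.8 in MttpLKO.

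Noct, a circadian deadenylase gene, read 55.6, 51.6 and 91.7 CPM in control and 53.5, 130 and 274 in MttpLKO, and Igfbp1, an insulin-repressed growth factor-binding protein gene, read 137, 86.3 and 144 against 233, 462 and 131 (edgeR adjusted p = 0.787 and 0.72). In both genes the MttpLKO pools were spread more widely than the controls and 1 of them lay within the control range.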
